A study of Mus musculus with 12 samples.

Results

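The genes described are 10 that act in DNA replication: Pcna, Mcm2, Mcm3, Mcm4, Mcm5, Mcm6, Mcm7, Rrm1, Rrm2 and Top2a. They were chosen by symbol, and all 10 were found among the 12752 genes of the count table. The study measured poly-A RNA of a whole leg muscle, the tibialis anterior, in male C57BL/6 mice that were 8 weeks old at injection. All muscles were injected with AAV:TET. The second vector was AAV:MCS, which is empty, or in the opposite limb AAV:Dux, which carries the mouse homologue of human DUX4, a transcription factor misexpressed in facioscapulohumeral dystrophy. After 7 days on normal chow, mice stayed on it or were given chow with 600 mg/kg doxycycline, and the labels name 2 or 7 days of that chow without saying which applies here. There were 4 groups of 3 libraries. On normal chow these were EV, with the empty vector, and DUX, with the Dux vector, and the groups given doxycycline were named EV_DOX and DUX_DOX accordingly. The labels do not say that each library is from its own mouse, so p-values measure the spread between these libraries, which may be partly technical.

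Before a cell copies its DNA, the Mcm2 to Mcm7 proteins are loaded onto origins as a ring of 6 different subunits, which later becomes the motor of the replicative helicase. PCNA is the sliding clamp that holds DNA polymerases on their template, and it also serves DNA repair. Ribonucleotide reductase makes the DNA building blocks from a large subunit (Rrm1) and a small subunit (Rrm2 in dividing cells, Rrm2b also outside the cell cycle), and topoisomerase II alpha (Top2a) untangles the copies. In adult muscle the fibre nuclei do not divide, and these genes are known to be expressed mainly in the dividing cells among the other cells of the tissue, while Pcna, Rrm1 and several Mcm genes keep a low level outside division.

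For 7 of the 10 genes, the libraries of the Dux muscles on doxycycline chow lay above all others, against 15.7% of all genes. Pcna, Mcm3, Mcm4, Mcm5, Mcm6 and Top2a rose between EV_DOX and DUX_DOX, by 1.7-fold to 2.8-fold. Mcm2, Mcm7, Rrm1 and Rrm2 did not pass the test in that comparison, where 14.9% of all genes passed as higher and 10.3% as lower. None of the 10 passed for Dux on normal chow or for doxycycline chow with the empty vector.

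The stretches of 180 bases just before the annotated starts of 6 of the genes are shown first, because 4 of these genes rose (Mcm3, Mcm5, Mcm6 and Top2a) and the others did not (Mcm2 and Rrm1). They come from RefSeq on GRCm38.p6, 5′ to 3′ on the strand of the gene. Capitals mark matches, on either strand, to 3 motifs of cell cycle promoters: E2F sites (TTTCCCGC, TTTCGCGC, TTTGCCGC or TTTGGCGC), the CCAAT box (CCAAT) and the CHR (TTTGAA or TTCGAA). The stretches lie at chr1:20820313-20820492 (Mcm3, minus strand), chr8:75109329-75109508 (Mcm5, plus strand), chr1:128359706-128359885 (Mcm6, minus strand), chr11:99024190-99024369 (Top2a, minus strand), chr6:88898781-88898960 (Mcm2, minus strand) and chr7:102441515-102441694 (Rrm1, plus strand).
Mcm3: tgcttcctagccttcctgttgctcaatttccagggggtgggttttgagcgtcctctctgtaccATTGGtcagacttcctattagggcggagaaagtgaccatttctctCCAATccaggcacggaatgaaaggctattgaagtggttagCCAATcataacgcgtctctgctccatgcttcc
Mcm5: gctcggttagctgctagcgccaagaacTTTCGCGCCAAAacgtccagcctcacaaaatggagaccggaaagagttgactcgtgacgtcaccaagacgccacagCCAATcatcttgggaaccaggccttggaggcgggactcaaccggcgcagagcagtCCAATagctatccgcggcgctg
Mcm6: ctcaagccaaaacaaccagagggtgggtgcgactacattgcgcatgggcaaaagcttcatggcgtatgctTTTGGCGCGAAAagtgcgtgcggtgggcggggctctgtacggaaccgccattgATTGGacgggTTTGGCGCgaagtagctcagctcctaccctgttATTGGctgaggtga
Top2a: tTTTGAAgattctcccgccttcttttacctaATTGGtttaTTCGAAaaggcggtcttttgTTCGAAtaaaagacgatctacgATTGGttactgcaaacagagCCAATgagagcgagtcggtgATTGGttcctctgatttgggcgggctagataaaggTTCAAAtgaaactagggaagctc
Mcm2: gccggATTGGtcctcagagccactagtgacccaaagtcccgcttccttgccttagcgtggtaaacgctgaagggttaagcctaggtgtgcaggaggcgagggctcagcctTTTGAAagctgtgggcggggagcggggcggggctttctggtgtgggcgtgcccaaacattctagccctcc
Rrm1: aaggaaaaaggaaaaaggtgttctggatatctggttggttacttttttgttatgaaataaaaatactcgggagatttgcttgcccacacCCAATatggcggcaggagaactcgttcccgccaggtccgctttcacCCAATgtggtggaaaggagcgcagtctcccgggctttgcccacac

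The motifs were counted in windows of 300 bases, 250 before and 50 after the start, which were found for 9 of the 10 genes, all but Mcm4, with a pair of starts for Mcm7. E2F letters stood in the windows of 4 of the 9 genes, Mcm3, Mcm5, Mcm6 and Mcm7, against 2.26% of all 32851 windows. Mcm6 held 3 such matches and Mcm5 held 2, and the matches of Mcm5 and the first pair of Mcm6 overlap each other on opposite strands. Both matches of Mcm3 lie after its start, outside the stretch shown. All 9 genes held a CCAAT box, which 37.4% of all windows hold, and Top2a held 6 of them. CHR letters were found in Mcm2, Mcm7 and Top2a, against 19.2% of all windows, and in Top2a the palindrome TTCGAA was counted on both strands. Of the genes with E2F letters, Mcm7 did not pass the test between EV_DOX and DUX_DOX, while Pcna and Top2a, which rose, have no E2F letters in their windows. A match is a description of the letters in the window and was not tested as a binding site.

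**Figure D1:**
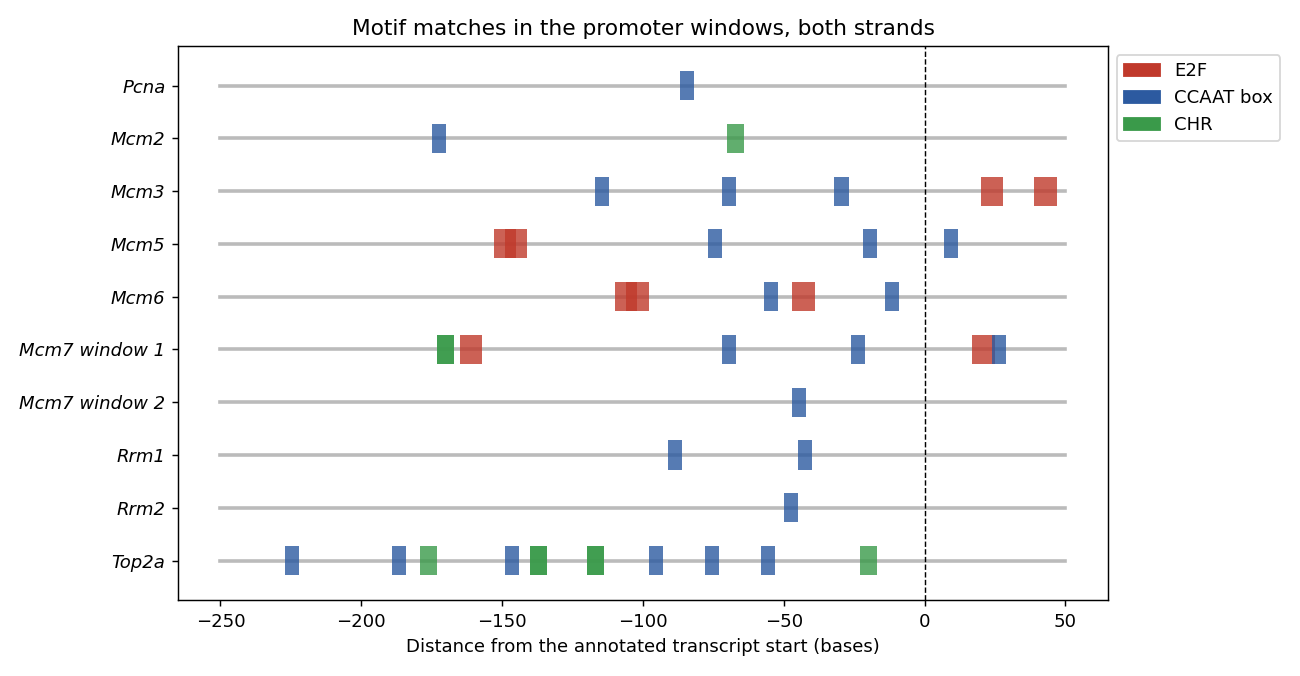
Matches to the 3 motifs in the 300-base promoter windows of 9 genes (Mcm7 with both starts), by position relative to the annotated start in bases. Each mark is a match on either strand; E2F matches appear in Mcm3, Mcm5, Mcm6 and the first Mcm7 window only among these windows, and CCAAT boxes in all of them.

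Library totals were 11880593 to 13811999 counts. The genes are of low abundance at this depth, with 9 counts (Rrm2 in DUX 2) to 662 counts (Rrm1 in DUX 3) per library, so that a single count of Rrm2 or Top2a matters more than one of Pcna or Rrm1. Levels below are CPM, the counts of a gene scaled to TMM-adjusted library totals. Fold changes are on the log2 scale, from edgeR's quasi-likelihood fit, and carry its standard error (SE). A gene passed, or was called, where its p-value, adjusted by Benjamini and Hochberg's method across all 12751 genes in the test, was below 0.05. Dux itself is not analysed here. Tmem92, a gene that Dux activates, had 2 counts over the 3 EV libraries, 2 in EV_DOX, 8 in DUX and 4832 in DUX_DOX.

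To compare genes with each other, CPM were divided by the length in kilobases of the principal transcript. Over the 12 libraries Pcna (11.2 CPM per kb) and Rrm1 (10.2) were the most abundant of the genes, and Top2a (0.538), Mcm5 (0.695) and Rrm2 (0.835) the least. In EV the order of the mean levels per kb was Rrm1 (9.92 ± 1.6), Pcna (8.28 ± 0.60), Mcm2 (3.00 ± 0.26), Mcm7 (2.24 ± 0.19), Mcm4 (1.39 ± 0.14), Mcm6 (1.21 ± 0.16), Mcm3 (1.14 ± 0.25), Rrm2 (0.598 ± 0.15), Mcm5 (0.442 ± 0.090) and Top2a (0.301 ± 0.16) (SD, n = 3). Rrm1 and Pcna overlapped in that group, as did Mcm4, Mcm6 and Mcm3, and Rrm2, Mcm5 and Top2a, whereas Mcm2 and Mcm7 each stood apart from their neighbours. In DUX_DOX Pcna led at 18.0 ± 2.3 CPM per kb, above Rrm1 at 8.70 ± 0.72. The order depends on the length used: divided by all merged exons, Mcm2 (1.53) lay below Mcm4 and Mcm7 (1.68 each) over the 12 libraries.

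**Figure D2:**
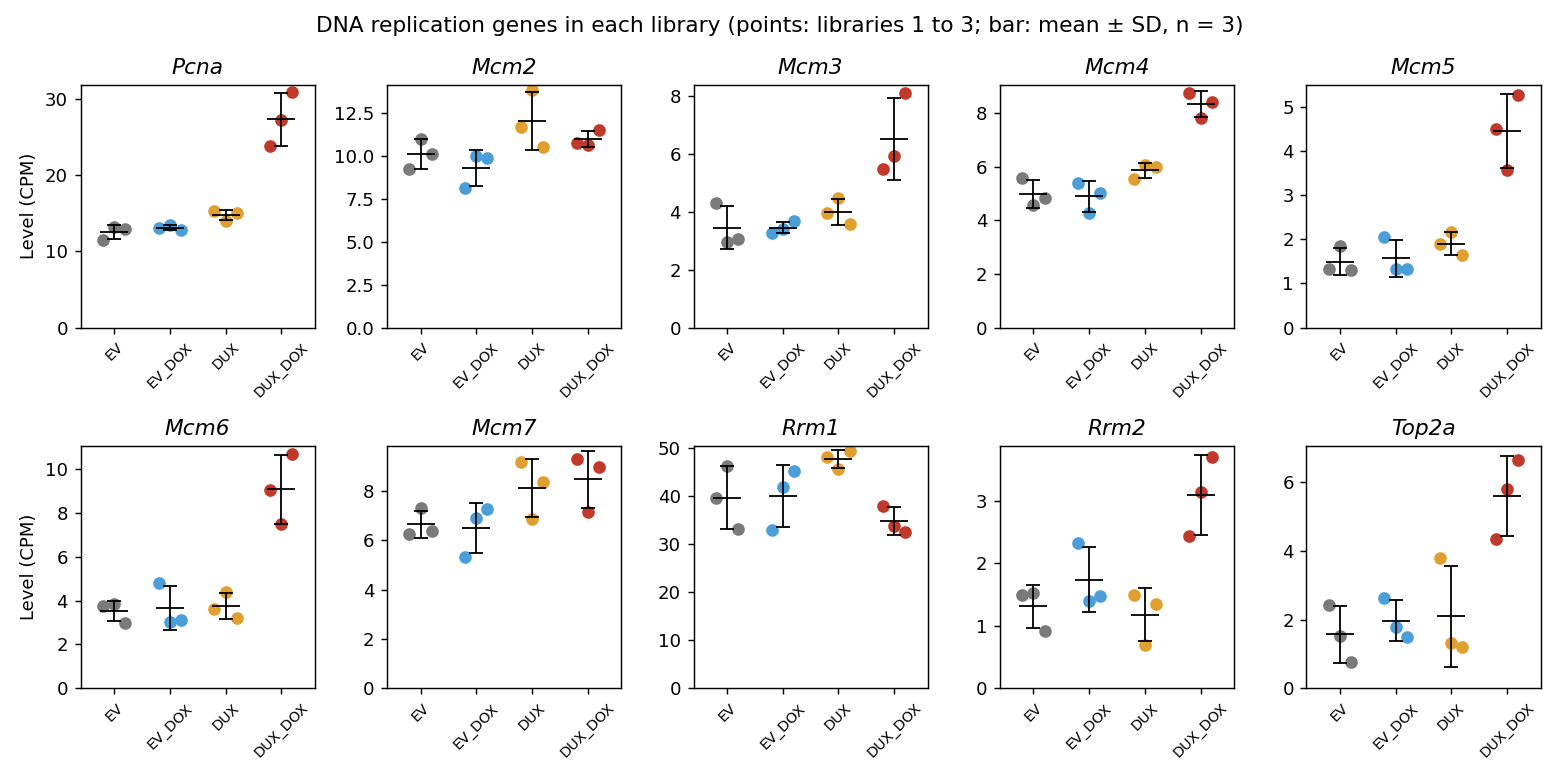
CPM of the 10 genes in every library, by group, with 1 point per library and the mean and SD of each group as bars. The 3 DUX_DOX libraries lie above the 9 others for Pcna, Mcm3, Mcm4, Mcm5, Mcm6, Rrm2 and Top2a and not for Mcm2, Mcm7 and Rrm1.

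Pcna, on chromosome 2 (132249162 to 132253314, minus strand of GRCm38 in GENCODE M21), encodes the clamp. It stood at 11.5, 13.2 and 13.0 CPM in EV, 13.1, 13.5 and 12.8 in EV_DOX, 15.3, 14.0 and 15.0 in DUX, and 23.9, 27.3 and 30.9 in DUX_DOX. All DUX_DOX libraries lay far above the other 9, and the DUX libraries lay just above those of EV without overlap. DUX_DOX exceeded EV_DOX by 1.06 on the log2 scale (SE 0.11, adjusted p = 6.67e-06), from 13.1 ± 0.33 to 27.4 ± 3.5 CPM (SD, n = 3). It exceeded DUX by 0.89 (SE 0.11, adjusted p = 3.26e-05).

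Of the 6 helicase subunits, 4 rose in DUX_DOX and Mcm2 and Mcm7 did not pass. Mcm5 (chromosome 8, 75109569 to 75128439, plus strand) stood at 1.33, 1.84 and 1.30 CPM in EV, 2.04, 1.32 and 1.33 in EV_DOX, 1.90, 2.15 and 1.64 in DUX, and 4.49, 3.58 and 5.26 in DUX_DOX. Its DUX_DOX libraries were the highest 3 of the 12, and the other groups overlapped. The log2 fold change from EV_DOX to DUX_DOX was 1.49 (SE 0.24, adjusted p = 0.000448), and that from DUX to DUX_DOX was 1.22 (SE 0.23, adjusted p = 0.00150).

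Mcm6 (chromosome 1, 128331590 to 128359664, minus strand) had 3.76, 3.85 and 2.99 CPM in EV, 4.82, 3.02 and 3.13 in EV_DOX, 3.64, 4.39 and 3.21 in DUX, and 9.07, 7.51 and 10.7 in DUX_DOX. Again the DUX_DOX libraries stood above all others, and the highest of the rest was EV_DOX 1. Mcm6 rose by 1.30 (SE 0.20, adjusted p = 0.000378) against EV_DOX and by 1.27 (SE 0.20, adjusted p = 0.000411) against DUX.

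Mcm3 (chromosome 1, 20802968 to 20820312, minus strand) had 4.31, 2.97 and 3.07 CPM in EV, 3.29, 3.41 and 3.68 in EV_DOX, 3.95, 4.46 and 3.59 in DUX, and 5.49, 5.94 and 8.12 in DUX_DOX. Its lowest DUX_DOX library lay above the highest of the rest, DUX 2, and DUX_DOX 3 was well above the other libraries of its group. It rose by 0.91 (SE 0.19, adjusted p = 0.00351) against EV_DOX. Against DUX it rose by 0.70 (SE 0.19, adjusted p = 0.0135), a call that was lost without DUX 3 (adjusted p = 0.0556) or DUX_DOX 3 (0.0737).

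Mcm4 (chromosome 16, 15623897 to 15637400, minus strand) had 5.57, 4.57 and 4.83 CPM in EV, 5.40, 4.26 and 5.01 in EV_DOX, 5.53, 6.08 and 5.98 in DUX, and 8.76, 7.80 and 8.42 in DUX_DOX. EV overlapped with EV_DOX and with DUX, the DUX libraries lay above those of EV_DOX, and the DUX_DOX libraries were close together above all others. The rise was 0.77 (SE 0.14, adjusted p = 0.00117) against EV_DOX and 0.50 (SE 0.14, adjusted p = 0.0129) against DUX, the latter lost without DUX 1 (adjusted p = 0.0517).

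Mcm2 and Mcm7 passed neither against EV_DOX nor against DUX. Mcm2 (chromosome 6, 88883474 to 88898780, minus strand) had 9.25, 11.0 and 10.1 CPM in EV, 8.10, 9.99 and 9.86 in EV_DOX, 11.7, 13.9 and 10.5 in DUX, and 10.7, 10.7 and 11.5 in DUX_DOX. DUX_DOX lay above EV_DOX without overlap but inside the range of DUX, whose second library was the highest of the 12. The log2 fold change was 0.24 (SE 0.13, adjusted p = 0.206) against EV_DOX and -0.13 (SE 0.13, adjusted p = 0.470) against DUX.

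Mcm7 (chromosome 5, 138164583 to 138172422, minus strand) had 6.27, 7.29 and 6.37 CPM in EV, 5.33, 6.89 and 7.28 in EV_DOX, 9.17, 6.85 and 8.37 in DUX, and 9.29, 7.15 and 8.97 in DUX_DOX. Both Dux groups overlapped with each other and with the empty vector groups. Its log2 fold change was 0.38 (SE 0.16, adjusted p = 0.100) against EV_DOX and 0.06 (SE 0.16, adjusted p = 0.812) against DUX.

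Because the 6 subunits form a ring with 1 copy of each, the makeup of their summed RNA level per kb was also followed. Mcm2 made up 31.9% ± 2.65 of it in EV, 30.1% ± 3.21 in EV_DOX, 32.0% ± 2.64 in DUX and 21.8% ± 1.68 in DUX_DOX (SD, n = 3). Mcm6 made up 12.8% in EV, 13.7% in EV_DOX, 11.5% in DUX and 20.7% ± 1.31 in DUX_DOX. Mcm5, the least abundant subunit, went from 4.67%, 5.05% and 5.04% in the other groups to 8.70% ± 0.71 in DUX_DOX. In each library the ratio of Mcm6 to Mcm2 was 0.978, 0.816 and 1.07 in DUX_DOX and between 0.342 and 0.689 in the other 9. The ratio of Mcm5 to Mcm2 was likewise apart, at 0.417, 0.335 and 0.455 in DUX_DOX and 0.128 to 0.252 elsewhere. That of Mcm7 to Mcm2, at 0.764 to 0.985 in DUX_DOX and 0.563 to 0.904 elsewhere, overlapped. The summed level of the 6 genes was 28.7 to 37.8 CPM in the other 9 libraries and 47.8, 42.6 and 52.9 CPM in DUX_DOX. These shares and ratios are described without a test.

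**Figure D3:**
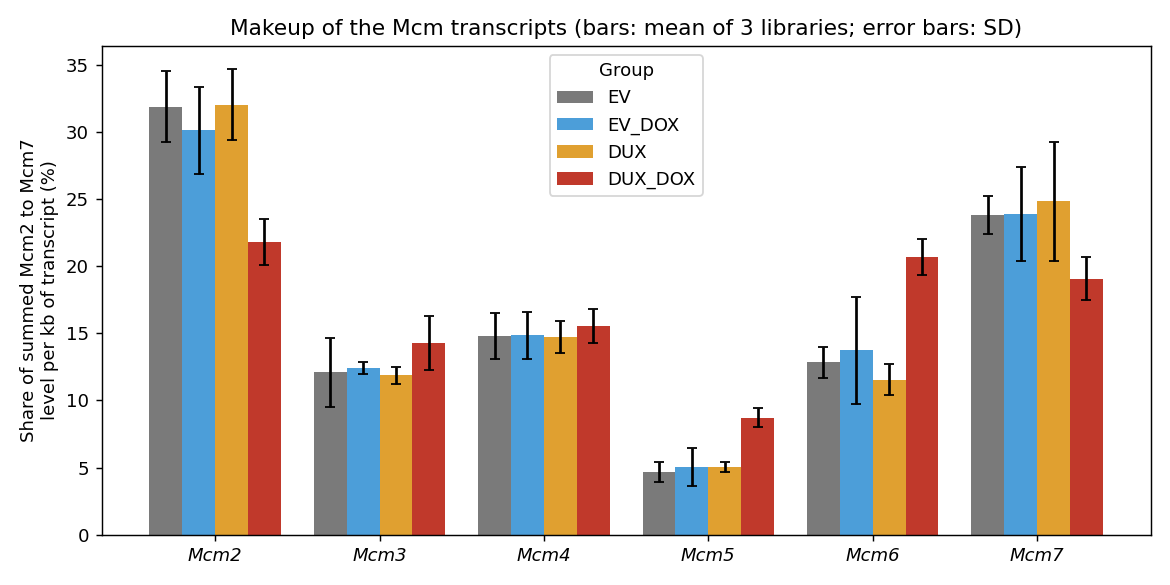
Share (percent) of each Mcm gene in the summed level per kilobase of Mcm2 to Mcm7, as mean and SD of the 3 libraries of each group. The Mcm2 share is 30.1% to 32.0% in the other groups and 21.8% in DUX_DOX, where the Mcm6 share is 20.7%.

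The subunits of ribonucleotide reductase moved in opposite directions when the Dux muscles on both chows were compared. Rrm1 (chromosome 7, 102441695 to 102469771, plus strand) had 39.6, 46.3 and 33.1 CPM in EV, 32.9, 41.9 and 45.3 in EV_DOX, 48.2, 45.8 and 49.5 in DUX, and 38.0, 33.9 and 32.5 in DUX_DOX. The DUX_DOX libraries lay below those of DUX without overlap, and overlapped with EV_DOX, with DUX_DOX 3 the lowest of the 12. Rrm1 fell by 0.46 (SE 0.13, adjusted p = 0.0156) against DUX, and its log2 fold change against EV_DOX was -0.20 (SE 0.13, adjusted p = 0.271). The fall was lost without DUX 3 (adjusted p = 0.0510), DUX_DOX 2 (0.0512) or DUX_DOX 3 (0.0640).

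Rrm2 (chromosome 12, 24708241 to 24714146, plus strand) had 1.49, 1.52 and 0.92 CPM in EV, 2.34, 1.39 and 1.49 in EV_DOX, 1.50, 0.69 and 1.34 in DUX, and 2.44, 3.15 and 3.71 in DUX_DOX. The DUX_DOX libraries were the highest of all, with EV_DOX 1 just below the lowest of them. Against DUX, Rrm2 rose by 1.39 (SE 0.31, adjusted p = 0.00450). Against EV_DOX its log2 fold change was 0.82 (SE 0.29, adjusted p = 0.0535), which passed without EV_DOX 1 (1.10, adjusted p = 0.0229), EV 3 (0.0493), DUX 2 (0.0422) or DUX_DOX 1 (0.0424) and with limma-voom (0.0481). Rrm2b, the small subunit used outside the cell cycle, fell by 0.47 against EV_DOX (SE 0.09, adjusted p = 0.00182). Within each library, Rrm2 per kb was 0.236 to 0.413 of Rrm2b in DUX_DOX and 0.048 to 0.180 in the other 9.

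Top2a (chromosome 11, 98992943 to 99024189, minus strand) had 2.43, 1.52 and 0.77 CPM in EV, 2.63, 1.78 and 1.49 in EV_DOX, 3.80, 1.31 and 1.20 in DUX, and 4.34, 5.79 and 6.65 in DUX_DOX. The DUX_DOX libraries were the highest, and DUX 1 came closest to them. Top2a rose by 1.50 (SE 0.40, adjusted p = 0.0139) against EV_DOX, a call lost without EV_DOX 3 (adjusted p = 0.0502) or DUX_DOX 3 (0.0590). It rose by 1.42 (SE 0.40, adjusted p = 0.0156) against DUX, lost without DUX 2 (adjusted p = 0.0724), DUX 3 (0.0697) or DUX_DOX 3 (0.0624), and the estimate was 2.15 without DUX 1. Its paralogue Top2b, which is also expressed in cells that do not divide, had a difference of -0.21 from EV_DOX (log2, SE 0.09, adjusted p = 0.0940). Top2a per kb was 0.193 to 0.327 of Top2b in DUX_DOX and 0.025 to 0.140 in the other libraries.

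Between EV_DOX and DUX_DOX, 6 of the 10 genes were called higher and 0 lower, where 14.9% of all genes tested were called higher, 10.3% lower and 25.3% in either direction. Their median log2 fold change was 0.87, and that of all genes was -0.01. The groups did not overlap for 8 of the 10, all but Mcm7 and Rrm1, and 21.4% of all genes were higher in DUX_DOX without overlap and 17.3% lower. Between DUX and DUX_DOX, 7 were called higher and 1 (Rrm1) lower, against 16.5% of all genes called higher, 13.1% lower and 29.6% in either direction. The median there was 0.80, against 0.01 for all genes. The same 7 were higher without overlap and Rrm1 was lower, where 25.9% of all genes were higher without overlap and 22.6% lower. These comparisons share the DUX_DOX libraries, so their counts are not independent. DUX_DOX lay above all 9 other libraries for 7 of the 10 genes, against 15.7% of all genes.

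**Figure D4:**
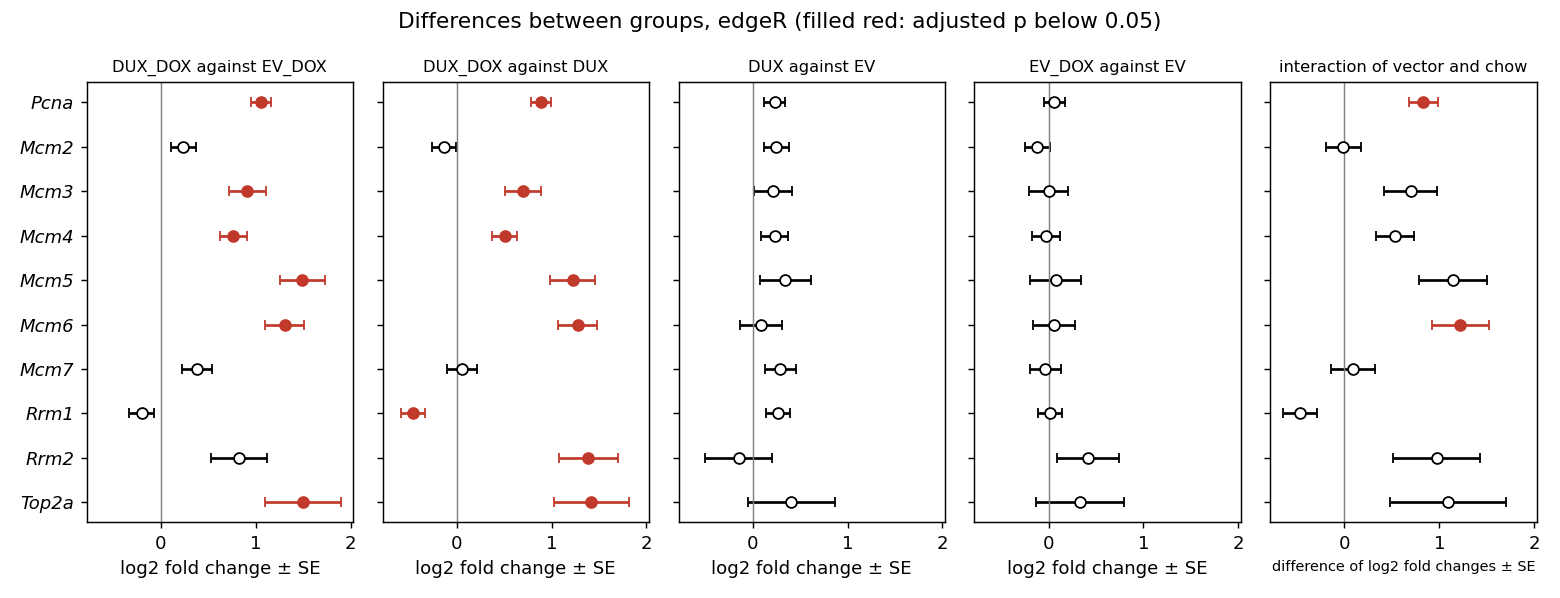
Log2 fold changes of the 10 genes with their SE in DUX_DOX against EV_DOX, DUX_DOX against DUX, DUX against EV and EV_DOX against EV, and in the interaction of vector and chow, with called genes filled. Pcna, Mcm5, Mcm6 and Top2a have the largest estimates against EV_DOX (1.06 to 1.50), and the estimates of EV_DOX against EV lie between -0.12 and 0.41.

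On normal chow, 0 of the 10 genes were called between EV and DUX by edgeR, and 0 had an unadjusted p below 0.05, while 0.0% of all genes were called. DESeq2 and limma-voom also called 0 of them. The estimates were positive for 9 of the 10, from 0.08 (Mcm6) to 0.41 (Top2a), with Rrm2 at -0.15 and a median of 0.24. Those of the more abundant genes were 0.23 for Pcna (SE 0.11, adjusted p = 0.327), 0.25 for Mcm2 (SE 0.13, adjusted p = 0.362) and 0.27 for Rrm1 (SE 0.13, adjusted p = 0.323). Pcna was the gene of the 10 whose groups did not overlap, where 11.3% of all genes were higher in DUX without overlap. Doxycycline chow with the empty vector gave 0 calls of 10 by edgeR, DESeq2 and limma-voom and 0 unadjusted p below 0.05, where 0.0392% of all genes were called. The estimates ran from -0.12 (Mcm2) to 0.41 (Rrm2), with a median of 0.03. The groups overlapped for all 10, where 5.69% of all genes were higher without overlap and 6.45% lower.

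Whether the Dux effect differed between the chows was tested as an interaction of vector and chow. It was called for Pcna (0.83, SE 0.15, adjusted p = 0.00384) and Mcm6 (1.22, SE 0.30, adjusted p = 0.0203), 2 of the 10, against 6.97% of all genes called higher, 3.43% lower and 10.4% in either direction. The other estimates were 1.15 for Mcm5 (SE 0.36, adjusted p = 0.0566), 1.09 for Top2a (0.274), 0.97 for Rrm2 (0.189), 0.70 for Mcm3 (0.126), 0.53 for Mcm4 (0.100), 0.09 for Mcm7, -0.01 for Mcm2 and -0.47 for Rrm1 (0.109), with adjusted p in parentheses. Mcm6 was no longer called without EV 1 (adjusted p = 0.0508), EV_DOX 2 (0.0524), EV_DOX 3 (0.0509) or DUX 3 (0.0559). Without EV_DOX 1, Mcm5 (adjusted p = 0.0218) and Rrm1 (0.0237) passed as well, and without EV 2 Rrm1 did (0.0369).

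The rest of the replication machinery was read from 7 lists of 73 genes, of which 64 were in the table. The lowest mean count in the table was 10, which a scarce gene may reach through its DUX_DOX counts alone. Counts out of the measured genes may therefore favour genes that are higher in DUX_DOX, in these and in the later lists. Between EV_DOX and DUX_DOX 15 of the 64 rose and 2 fell, where 14.9% of all genes were called higher and 10.3% lower. Their median log2 fold change was 0.23. Between DUX and DUX_DOX 11 rose and 3 fell, with a median of 0.21, against 16.5% of all genes called higher and 13.1% lower. Calls in either direction were near the share over all genes (25.3%) in the first comparison and below it (29.6%) in the second. The lists below are for the first comparison, with the same all-gene shares. Among the origin licensing genes 3 of 9 rose: Cdt1, which loads the Mcm ring (2.02, SE 0.32, adjusted p = 0.000388), Orc2 of the origin recognition complex (0.43, 0.00911) and Mcmbp, a binding partner of the Mcm proteins (0.36, 0.00743). Of the helicase activation genes 3 of 11 rose, Topbp1 (0.70), Dbf4, the regulatory subunit of the Cdc7 kinase (1.15), and Mtbp (0.99). Both primase subunits rose, Prim2 by 1.66 (adjusted p = 0.00979) and Prim1 by 1.01 (0.0230), as the only calls among 12 polymerase and primase genes. Pole2, of polymerase epsilon, had 1.02 (adjusted p = 0.0596). The call of Prim1 was lost without EV_DOX 3 (adjusted p = 0.0949), DUX_DOX 1 (0.0762) or DUX_DOX 3 (0.0743).

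Of 9 clamp loader and RPA genes, Rfc3 of the loader rose by 0.65 (adjusted p = 0.0376) and Rpa1, which coats single-stranded DNA, fell by 0.25 (adjusted p = 0.0211), while Rfc5 had 0.59 (adjusted p = 0.0955). Rfc3 was lost without EV_DOX 1, EV_DOX 2, EV_DOX 3, DUX_DOX 2 or DUX_DOX 3 (adjusted p 0.0703 to 0.140), and Rpa1 without EV_DOX 3 (0.0517) or DUX_DOX 2 (0.0700). Of 8 genes of flap removal, ligation and topoisomerases only Rnaseh2b, a subunit of the nuclease that removes RNA primers, rose (0.65, adjusted p = 0.0167), and Top1 had 0.28 (adjusted p = 0.0780). Rnaseh2b was lost without EV_DOX 2 (0.0510) or DUX_DOX 2 (0.0660), and Top1 passed without DUX_DOX 1 (0.0432). In nucleotide supply, Dck, a salvage kinase, rose by 0.67 (adjusted p = 0.0121, and 0.0567 without DUX_DOX 2), Rrm2b fell, and Tyms, which makes thymidylate, had 0.86 (adjusted p = 0.148).

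Of the genes that pack and mark the new DNA 4 of 6 rose, with a median of 0.80, and Uhrf1 had the largest estimate of the 64. Uhrf1, which brings the maintenance methyltransferase to new DNA, had 0.88, 0.54 and 0.63 CPM in EV_DOX and 6.25, 7.65 and 9.43 CPM in DUX_DOX. All DUX_DOX libraries lay many times above those of EV_DOX, and the rise was 3.49 on the log2 scale (SE 0.35, adjusted p = 6.05e-06). Asf1b, a histone chaperone (2.55, adjusted p = 0.000540), Hells, a chromatin remodeller (1.25, 0.0182), and Dnmt1, the maintenance methyltransferase itself (0.36), also rose. Dnmt1 was named after its value was seen. Hells was lost without EV_DOX 2, EV_DOX 3, DUX_DOX 2 or DUX_DOX 3 (adjusted p 0.0601 to 0.0824).

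Of 27 genes that control entry into replication, 6 rose and 3 fell, with a median of 0.11. Over all genes 14.9% were called higher and 10.3% lower. E2f8, a repressor that is itself switched on with the replication genes, had 12 counts over the EV_DOX libraries and 126 over those of DUX_DOX, which is 3.32 on the log2 scale (SE 0.37, adjusted p = 1.98e-05). With so few counts, E2f8 may be in the table only through DUX_DOX. E2f4 rose by 0.74 (adjusted p = 0.000365), and Tfdp2, a partner of E2F proteins, fell by 0.69 (adjusted p = 5.49e-05). The other genes that rose, named after their values were seen, were Ccne1 (2.19), Ccna2 (1.36), E2f1 (1.16) and Cdk4 (0.34), and those that fell were Rbl2 (-0.40) and E2f6 (-0.28).

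**Figure D5:**
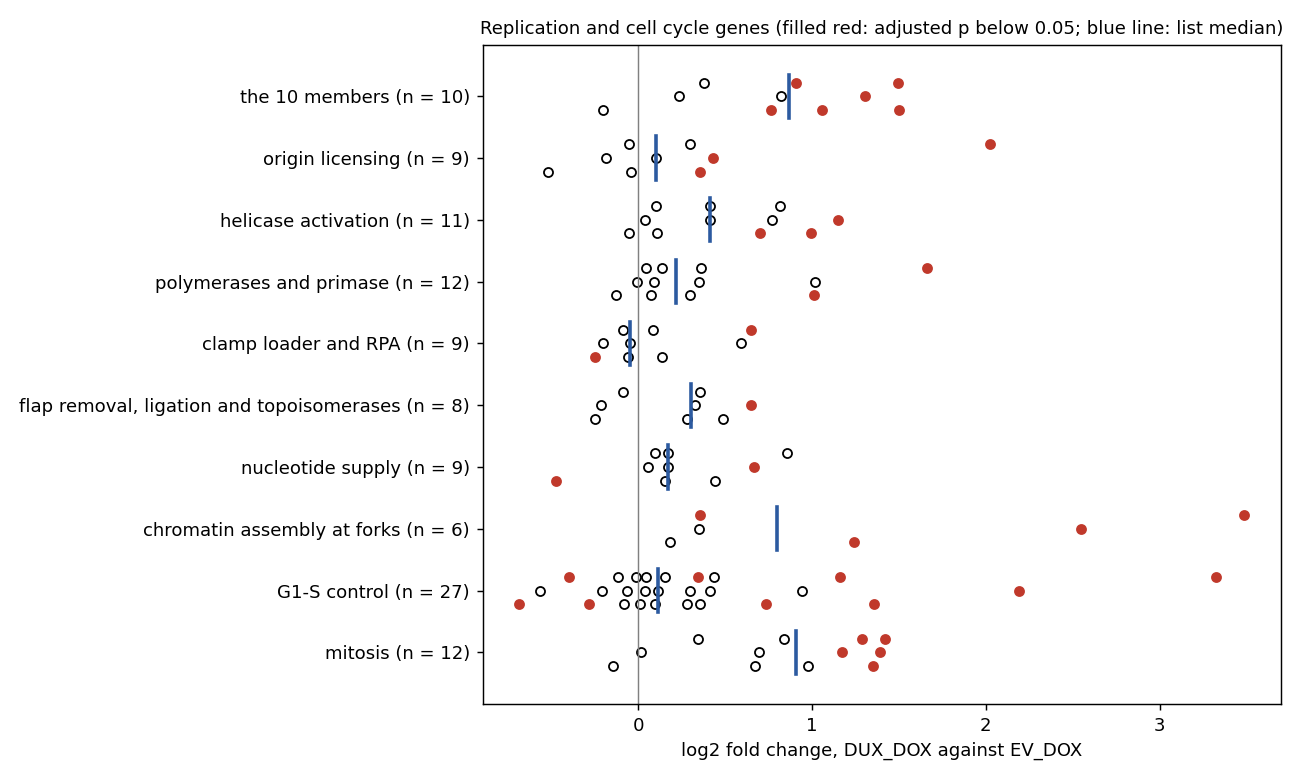
Log2 fold changes in DUX_DOX against EV_DOX for the 10 genes and every measured gene of the replication, G1-S control and mitosis lists, 1 point per gene, with called genes filled and a line at the median of each list. Chromatin assembly and mitosis have the highest medians of the lists other than the 10 genes (0.80 and 0.91), and clamp loader and RPA the lowest (-0.04).

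Markers of other cell types moved with the same comparison. Between EV_DOX and DUX_DOX 14.9% of all genes were called higher and 10.3% lower. Of 24 macrophage markers 22 rose there and 0 fell, with a median of 1.21, among them Cd68 (2.78) and Itgam (2.37). Their summed level was 165 to 257 CPM in EV, 158 to 224 in EV_DOX, 240 to 269 in DUX and 397 to 570 in DUX_DOX, and none of the 24 was at 0 in all libraries. Satellite cell markers gave 4 rises and 1 fall of 13, with a median of 0.06 and estimates from -1.05 to 1.22, of which 7 were positive. Their summed level, in which abundant markers weigh most, was 2419 to 2850.4 CPM in EV_DOX and 3255 to 3922 in DUX_DOX. Endothelial markers gave 1 rise and 1 fall of 13, and fibro-adipogenic markers 2 rises of 12. Only 1 of 12 T and NK cell markers, 1 of 6 B cell markers and 1 of 7 neutrophil markers was in the table. The B cell marker fell by 0.96 between EV_DOX and DUX_DOX and the neutrophil marker rose by 1.12. The T and NK cell marker was not called (0.41). On normal chow, between EV and DUX, the B cell marker had -0.79 and the neutrophil marker 0.93, neither called. Between DUX and DUX_DOX they had -0.35 and 0.39, again not called. The neutrophil marker was scarce, at 1.78 CPM in its highest DUX_DOX library. The summed level of 8 muscle fibre genes was 136531 to 146175 CPM in EV_DOX and 112300 to 126560 in DUX_DOX. Of these 8 genes 2 were called lower and 0 higher, with a median of -0.30 and estimates from -0.50 to -0.05. The part of these shifts in the values of the replication genes was not tested. In RNA of whole muscle, more cells of a type and more RNA per cell cannot be told apart.

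Last, the genes with the profile most like the mean of Mcm2 to Mcm7 were looked up among 12346 genes with a mean of at least 1 CPM. Likeness was the root mean square distance of log2 CPM, centred per gene, over the 12 libraries, whose median over all genes was 0.406. The nearest were Phc2 (0.103), Pfkp (0.105), Actr3 (0.110), Arhgdib (0.114) and Mafk (0.117), with log2 fold changes against EV_DOX of 0.65 to 0.76. Of the Mcm genes themselves Mcm4 ranked 4 and Mcm3 66, while Mcm7 (1619), Mcm6 (1829), Mcm5 (2482) and Mcm2 (2794) stood much farther from their own mean. Outside the Mcm set, Pcna ranked 127, Rrm2 7716, Rrm1 8581 and Top2a 11251. Each Mcm gene is part of the mean it was compared with, so its rank is not comparable to that of other genes. Counting noise adds to the distance of scarce genes such as Mcm5, Rrm2 and Top2a.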

How the data were processed

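RNA was measured in 12 libraries of whole tibialis anterior, 4 groups of 3, with poly-A selection from an input of 200 ng, per the labels' protocols. The values are raw read counts per gene as the authors deposited them. The submitters' processing notes name the tools bcl2fastq (2.17.1.14), STAR and featureCounts and the build GRCm38. The sources used here give neither the annotation nor the strand setting, so reads of overlapping antisense genes may be included. The table as deposited has 12752 genes, with a lowest mean count of 10 over the libraries. Genes scarce in the other groups may be present only because they are high in DUX_DOX. All columns were used.

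The test was edgeR 4.0.16 (R 4.3.3): quasi-likelihood F test, two-sided, TMM factors (0.916 to 1.12), filterByExpr, 1 mean per group over the 12 libraries, Benjamini-Hochberg over the 12751 genes left, threshold 0.05. The median biological coefficient of variation was 10.6%. Libraries of a group differed by more than counting noise (chi-square per degree of freedom 4.81 to 25.5). Alternatives were other scalings and filters, DESeq2 1.42.0, limma-voom (limma 3.58.1), a replicate block, the compared groups alone and leaving out each library. The steps were tested on simulated data. Replicate numbers were not treated as pairs, so opposite limbs of the same mouse, if present, were treated as independent.

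The genes and lists were chosen with earlier results of these data known. Of each other list the 3 genes with the smallest p in DUX_DOX against EV_DOX were named (2 of the macrophage list), besides Tmem92, Rrm2b, Top2b and the 5 nearest profiles. Coordinates and lengths (longest principal transcript, or merged exons) come from GENCODE M21, promoter windows from RefSeq on GRCm38.p6.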

Additional observations from a re-analysis of the deposited data

Results flagged for a closer look

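The Dux effect on Mcm6 and on Pcna differed between the chows, by the interaction of vector and chow in edgeR's fit. For Mcm6 the log2 fold change of Dux over empty vector was larger by 1.22 on doxycycline chow (adjusted p = 0.0203), and for Pcna by 0.83 (adjusted p = 0.00384). The call of Mcm6 was lost without EV 1, EV_DOX 2, EV_DOX 3 or DUX 3, while that of Pcna held in all 19 alternatives. No outlying library could be looked for within groups of 3.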

How the results depend on the processing

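The number of the 10 genes called in DUX_DOX against EV_DOX was 6, and 6 to 7 under the other scalings, filters and tools. It was 5 to 7 when 1 library was left out. In DUX_DOX against DUX it was 8 in each of those settings and 5 to 8 with 1 library left out, with 5 without DUX 3 or DUX_DOX 3. For the interaction it was 2 in each of those settings and 1 to 4 with 1 library left out, with 1 without EV 1, EV_DOX 2, EV_DOX 3 or DUX 3 and 4 without EV_DOX 1. For DUX against EV and EV_DOX against EV it was 0 in all settings run. Of the 64 other replication genes 17 were called in DUX_DOX against EV_DOX, where 25.3% of all genes were called. The count was 12 to 18 under the alternatives, and no named value changed sign among the calls. Top2b passed with upper-quartile scaling (adjusted p = 0.0498), and Prim1, Rfc3 and Cdk1 did not with DESeq2 (0.0548, 0.0992 and 0.0576). With the compared groups alone, the calls of Prim1 (adjusted p = 0.0599), Rpa1 (0.0723), Rfc3 (0.0644), Hells (0.0596) and Cdk1 (0.0724) were lost. Over all genes, 3224 were called in DUX_DOX against EV_DOX and 2109 without DUX_DOX 3, and DESeq2 called 153 in DUX against EV, where edgeR called 0 (2012 at an unadjusted p below 0.05).

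Over all pairs of groups, samples with the same replicate number did not deviate together as a rule. Their correlations ran from -0.419 to 0.204, both between EV and EV_DOX, and 4 of 18 were above 0.1. A sample correlated best with its own number 12 of 36 times. Opposite limbs of a mouse could only be EV with DUX or EV_DOX with DUX_DOX. Same-number correlations were -0.102, 0.174 and 0.117 for the former and -0.112, 0.095 and 0.004 for the latter. Whether limbs of a mouse are among the libraries cannot be told from these values. With a replicate block, 6 of the 10 genes were called in DUX_DOX against EV_DOX, 8 in DUX_DOX against DUX and 2 in the interaction, and 3040 of all genes in the first.

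Depth limits Rrm2, Top2a and Mcm5, with fewer than 100 counts in each library.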

Other observations

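Genes of mitosis, which follows replication in a dividing cell, rose in part. Of 21 genes of that list 12 were measured. Of these 5 rose between EV_DOX and DUX_DOX and 0 fell, with a median log2 fold change of 0.91, against 14.9% of all genes called higher and 10.3% lower. Those that rose were the spindle motor Kif11 (1.39, adjusted p = 0.00981), the spindle midzone protein Prc1 (1.42, 0.0167), the kinase Cdk1 (1.29, 0.0443) and, named after their values were seen, Bub1b (1.35) and Foxm1 (1.17). The count was 1 without EV_DOX 3, 2 without DUX_DOX 2 or DUX_DOX 3, and 3 without EV_DOX 2, DUX 2, DUX 3 or DUX_DOX 1. The call of Cdk1 was lost in 9 of 20 alternatives and that of Prc1 in 3, while Kif11 kept its call in all 20. The summed level of the 12 was 19.3 to 22.9 CPM in EV, 23.9 to 38.4 in EV_DOX, 24.1 to 33.1 in DUX and 36.2 to 48.4 in DUX_DOX. EV_DOX 2 (38.4) thus lay above DUX_DOX 1 (36.2). For EV_DOX against EV, 11 of the 12 estimates were positive, with a median of 0.34, and 0 were called. Mki67, a widely used marker of dividing cells, also chosen after its values were seen, had 3.21, 2.00 and 1.69 CPM in EV, 4.38, 3.87 and 3.36 in EV_DOX, 5.14, 2.31 and 2.32 in DUX and 5.26, 7.65 and 5.64 in DUX_DOX. Its DUX_DOX libraries were the highest of the 12, with DUX 1 just below them, and its log2 fold change against EV_DOX was 0.67 (adjusted p = 0.102).

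Of 13 genes of the p53 and DNA damage response that bear on PCNA or nucleotide supply, 5 rose and 0 fell, with a median of 0.10. Over all genes 14.9% were called higher and 10.3% lower. Btg2, an antiproliferative p53 target, rose by 2.26 (adjusted p = 7.14e-09), Sesn2 by 1.41 (0.000132) and Cdkn1a, whose product binds PCNA and stops the cell cycle, by 0.94 (0.0128). Trp53 (0.34) and Mdm2 (0.30), named after their values were seen, rose less. The count was 3 without EV_DOX 3. Rrm2b, another p53 target, fell, as given above.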
